A study of Mus musculus with 27 samples.

Results

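Glycolysis splits glucose into pyruvate, and lactate dehydrogenase turns pyruvate into lactate when it is not passed to the mitochondria. Most steps have several isozymes encoded by separate genes, and cells of different types use them in different proportions. Pluripotent stem cells of the mouse are known for high aerobic glycolysis, and several of these genes are classical targets of the hypoxia-inducible factor HIF-1. The genes described here are 10 of the 20156 genes in the deposited expression tables, taken by their symbols. Hk1 and Hk2 encode hexokinases, which phosphorylate glucose, Pfkl and Pfkp encode phosphofructokinases, which commit the sugar to the pathway, and Aldoa encodes the aldolase that splits it. Pgk1 encodes the phosphoglycerate kinase that yields the first ATP, Eno1 encodes an enolase, Ldha and Ldhb encode the subunits of lactate dehydrogenase, and Pdk1 encodes a kinase that switches off pyruvate dehydrogenase and so holds pyruvate back from the mitochondria.

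The study followed mouse embryonic fibroblasts (MEFs) through partly reprogrammed pre-iPSCs to induced pluripotent stem cells (iPSCs). MEFs came from embryos at E13.5 that were hemizygous for an Oct4-GFP transgene and for a Rosa26 allele, and the same background is shared by all 3 cell types. By the paper, the fathers carried the transgene on a mixed CBA/CaJ and C57BL/6J background, and the mothers were of an Sv/Jae substrain. Pre-iPSCs and iPSCs were made with the 4 Yamanaka factors carried by retroviruses. The study used 2 pre-iPSC clones and the iPSCs that correspond to them, whose assignment to libraries is not given in the sources used here. They were grown in medium with LIF on a layer of MEFs inactivated with mitomycin C, so that some fibroblast RNA and chromatin can be in those samples. RNA was taken from MEFs within 3 passages and from the other cells at passage 6. Each cell type had 2 RNA-seq libraries and 2 libraries each of total H3, H3K4me3 and H3K27me3 after digestion of chromatin with micrococcal nuclease, and 1 library of H3K9me3. The enzyme amount and digestion time used for MEFs were not those used for the other cells, and their part in any chromatin difference from MEFs cannot be told apart.

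The summed FPKM (fragments per kilobase of transcript, scaled to the size of the library) of 14 fibroblast markers was 6702 and 11757 in MEFs, then 723 and 781 in pre-iPSCs, then 338 and 485 in iPSCs. S100a4 alone held 6944 of this sum in replicate 2 of MEFs and 431 in replicate 2 of pre-iPSCs. Lum rose from 0.348 and 5.84 in MEFs to 5.88 and 8.59 in iPSCs. Dcn overlapped, with 9.005 and 36.6 in MEFs and 30.2 and 40.5 in iPSCs. Every other marker was lower in both iPSC libraries than in both MEF libraries. Between 12 and 14 of the 14 had at least 1 FPKM in each library, and the part of feeder RNA was not tested. All 10 pluripotency markers were under 1 FPKM in MEFs and above it in iPSCs. In pre-iPSCs, Nanog, Zfp42, Dppa3 and Esrrb stayed under 1 FPKM in both libraries. Pou5f1 (378 and 3184), Tdgf1 (228 and 333) and Fgf4 (23.1 and 13.9) were above it in both. So were Utf1 (23.2 and 1.67) and Dppa5a (1.70 and 5.01), while Lin28a had 1.24 and 0. Pou5f1 encodes Oct4, 1 of the 4 factors carried by the retroviruses, and had 586 and 397 FPKM in iPSCs. The FPKM of a gene does not separate viral from endogenous transcripts, and the viral part was not tested. The FPKM values summed to 818207 in replicate 2 of MEFs and to between 392424 and 527799 in the other libraries. The read depth behind an FPKM was not examined. The calls of H3 held between 67362868 and 108211816 reads, and those of the 3 modifications between 12007350 and 15222040. Replicate 1 of H3 stood apart in pre-iPSCs and iPSCs, with medians of 143 and 102 reads within 1000 bp of a transcription start site (TSS) over all genes against 37 to 46 in the other 4 libraries.

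The sequence upstream of 5 of the genes is shown because the results below turn on them: Pdk1 and Pfkl were called in expression, and the shares of Hk2 and of Ldhb against Ldha did not overlap between MEFs and iPSCs. Each run is the longest stretch of the 250 bases before the TSS that no annotated exon overlaps, read 5′ to 3′ on the gene's strand of mm9. Capitals mark the letters ACGTG or GCGTG, the core of a hypoxia response element, and GGGCGG, the GC box bound by Sp factors, on either strand. A match on the reverse strand appears as its reverse complement.
Hk2 (chr6:82724449-82724698, minus strand): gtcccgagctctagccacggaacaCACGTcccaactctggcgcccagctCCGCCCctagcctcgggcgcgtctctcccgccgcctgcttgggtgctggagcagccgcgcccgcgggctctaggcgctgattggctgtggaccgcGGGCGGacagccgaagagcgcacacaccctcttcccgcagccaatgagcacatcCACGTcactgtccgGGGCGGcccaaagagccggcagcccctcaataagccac
Pfkl (chr10:77472553-77472749, minus strand): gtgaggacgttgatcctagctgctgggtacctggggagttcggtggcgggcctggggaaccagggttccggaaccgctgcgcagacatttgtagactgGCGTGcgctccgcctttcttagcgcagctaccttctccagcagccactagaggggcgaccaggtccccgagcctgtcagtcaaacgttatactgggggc
Ldha (chr7:54102202-54102451, plus strand): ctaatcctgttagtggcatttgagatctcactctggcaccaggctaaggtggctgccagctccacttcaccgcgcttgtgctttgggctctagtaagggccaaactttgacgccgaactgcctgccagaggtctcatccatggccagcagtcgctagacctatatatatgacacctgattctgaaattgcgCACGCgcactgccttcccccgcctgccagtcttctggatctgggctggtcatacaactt
Ldhb (chr6:142456478-142456713, minus strand): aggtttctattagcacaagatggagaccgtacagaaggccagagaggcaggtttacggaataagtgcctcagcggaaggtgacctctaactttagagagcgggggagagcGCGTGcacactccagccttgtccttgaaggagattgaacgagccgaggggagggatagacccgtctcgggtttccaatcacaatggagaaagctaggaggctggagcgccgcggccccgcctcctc
Pdk1 (chr2:71711079-71711280, plus strand): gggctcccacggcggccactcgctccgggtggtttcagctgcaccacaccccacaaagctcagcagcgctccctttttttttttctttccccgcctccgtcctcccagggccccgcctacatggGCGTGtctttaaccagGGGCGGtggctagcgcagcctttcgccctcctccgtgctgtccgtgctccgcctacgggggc

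Over the whole 250 bases, all 10 genes held ACGTG or GCGTG on at least one strand, which was also true of 45.7% of the 20156 promoters. ACGTG was in 3 of the 10, Hk2, Aldoa and Pgk1, against 18.2% of all promoters, and GCGTG was in 7 of the 10 against 35.5%. The GC box was in 7 of the 10 and in 45.8% of all promoters, and neither Hk1, Ldha nor Ldhb held it. The E-box CACGTG, whose letters contain ACGTG, was in none of the 10 and in 6.91% of all promoters. Base composition moves with these counts, since 9 of the 10 had more GC than the median promoter (56.4%) and 9 of the 10 more CpG than the median of 11, and its part in the counts was not tested. The exception in both was Ldha, with 54.4% GC and 9 CpG. Another annotated start of Ldha lies 1243 bp upstream, so its window here lies downstream of that start. Annotated exons covered 245 of the 250 bases at Eno1 and 186 at Hk1. These matches are letters in a window and not mapped binding sites, and matches that reach outside the printed stretches are not shown in them.

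The means of the hexokinases lay in opposite directions between MEFs and iPSCs, and neither difference was called. Hk1, whose product sits on the mitochondria of most adult cells, had 25.4 and 17.0 FPKM in MEFs, then 15.7 and 30.3 in pre-iPSCs, then 13.6 and 10.3 in iPSCs. Its iPSC libraries were below all others in FPKM, but the log2 change against MEFs of -0.76 (SE 0.44) was not called (limma adjusted p = 0.246). As a part of the summed FPKM of its library, in ppm, Hk1 had 51.7 and 20.7 in MEFs and 25.8 and 26.2 in iPSCs, so that replicate 2 of MEFs lay below both, and the log2 change with libraries rescaled to the same sum was -0.33. Hk2, the inducible hexokinase of muscle, embryos and tumours, had 18.9 and 8.74 FPKM in MEFs, then 22.4 and 27.1 in pre-iPSCs, then 22.6 and 34.8 in iPSCs. Both MEF libraries were below the other 4, and replicate 2 of MEFs was the lowest of all. The log2 change of Hk2 was 0.88 (SE 0.46) in pre-iPSCs and 1.06 (SE 0.46) in iPSCs against MEFs, with limma adjusted p of 0.24 and 0.13.

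Here and below, a gene was called where its adjusted p was below 0.05 and its change at least 2-fold on the log2(FPKM + 1) scale, among the 12401 genes whose average reached 0.5 FPKM, which included all 10. In pre-iPSCs against MEFs, 1 of the 10 genes was called higher, as were 7.39% of all genes tested, and 0 were called lower, against 9% of all genes. In iPSCs against pre-iPSCs, 0 of the 10 were called, against 3.91% higher and 4.71% lower of all genes, although 1 of the 10 (Ldhb) reached 2-fold. In iPSCs against MEFs, 2 of the 10 were called higher and 0 lower, against 10.3% and 15.5% of all genes. The median log2 change of the 10 was 0.17, 0.20 and 0.86 in the 3 comparisons, beside -0.04, -0.09 and -0.14 over all genes tested. A positive change was measured in 7 of the 10 in each comparison, beside 47.4%, 43.8% and 44.4% of all genes. These numbers depend on the scaling. After quantile normalization a positive change was measured in 10, 7 and 9 of the 10, with medians of 0.60, 0.36 and 1.36, beside 50.2%, 50.9% and 51.3% of all genes, whose medians were 0.00, 0.01 and 0.03. With each library rescaled to the same summed FPKM it was also 10, 7 and 9 of the 10, with medians of 0.61, 0.25 and 1.34, beside 63.5%, 46.1% and 59% of all genes, whose medians were 0.31, -0.06 and 0.25. Among all calls in iPSCs against MEFs, 39.9% were higher without these settings, 48% after quantile normalization and 59.5% after rescaling. In pre-iPSCs against MEFs the share was 45.1%, and 62.6% after rescaling.

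**Figure D1:**
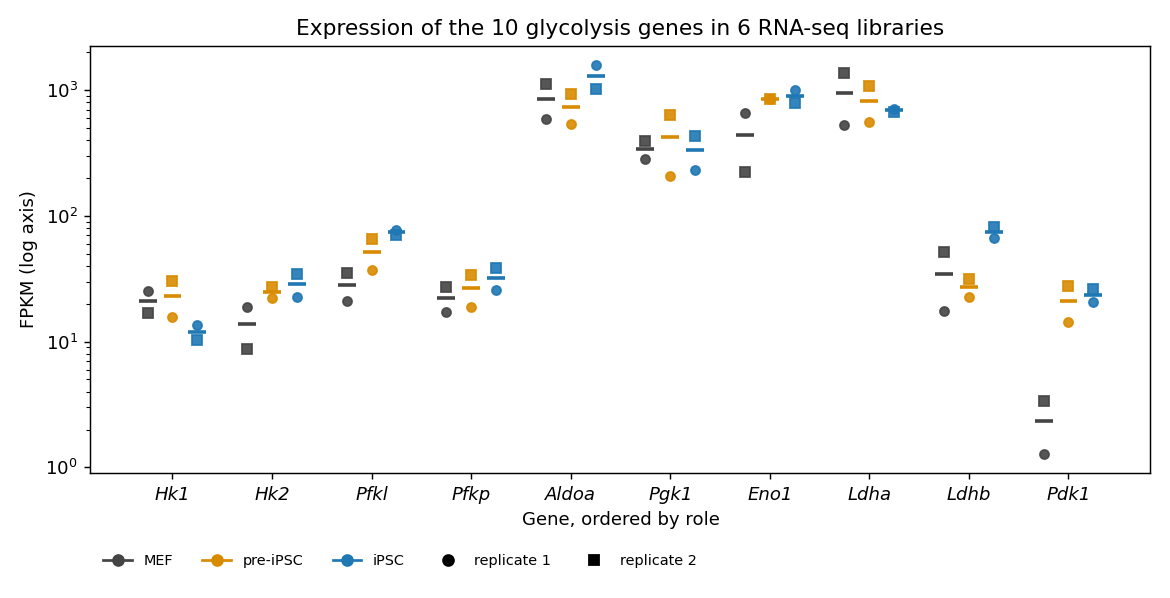
FPKM of the 10 genes (log axis) in the 2 RNA-seq libraries each of MEFs, pre-iPSCs and iPSCs; circles are replicate 1, squares replicate 2 and bars the mean of both. Aldoa, Pgk1, Eno1 and Ldha lie above the other 6 genes in all 6 libraries, and Pdk1 is separated between MEFs (1.29 and 3.35) and the other cells (14.3 to 27.5).

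The phosphofructokinases both had their lowest mean in MEFs, and Pfkl alone of the pair was called. Pfkl, the liver-type subunit, had 21.0 and 35.4 FPKM in MEFs, then 36.9 and 65.8 in pre-iPSCs, then 77.6 and 70.2 in iPSCs. The 3 groups did not overlap and stood in the order MEFs, pre-iPSCs, iPSCs. Pfkl rose in iPSCs against MEFs with a log2 change of 1.41 (SE 0.39, limma adjusted p = 0.0349), a 2.65-fold change of FPKM + 1. The steps between neighbours, 0.83 into pre-iPSCs and 0.57 from there into iPSCs, were not called, with limma adjusted p of 0.191 and 0.47. The call of Pfkl was lost without the filter on low values (adjusted p = 0.054), without the term for the table (0.0502) and when any pre-iPSC or iPSC library was left out. Pfkp, the platelet-type subunit, had 17.3 and 27.05 FPKM in MEFs, then 19.0 and 34.0 in pre-iPSCs, then 25.6 and 38.6 in iPSCs, and all 3 groups overlapped.

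Aldoa, Pgk1, Eno1 and Ldha were the abundant members. Aldoa had 589.9 and 1121 FPKM in MEFs, then 534 and 927 in pre-iPSCs, then 1577 and 1032 in iPSCs. It ranked between 51 and 133 among all 20156 genes, and its iPSC libraries were above both pre-iPSC libraries but overlapped MEFs. Ldha had 529 and 1369 FPKM in MEFs, then 557 and 1084 in pre-iPSCs, then 714 and 668 in iPSCs, ranks between 85 and 140. Its MEF libraries spanned all others, and its mean of 949 ± 594 (SD, n = 2) in MEFs shows how wide that spread was. Pgk1 had 283 and 398 FPKM in MEFs, then 209 and 638 in pre-iPSCs, then 230.2 and 436 in iPSCs, with overlap between all groups. None of these 3 genes was called in any comparison, and limma adjusted p lay between 0.4998 and 0.924.

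Eno1 looked low in MEFs, and the reading depends on a second gene record at its place. Its FPKM was 661 and 226 in MEFs, then 857 and 845 in pre-iPSCs, then 1004 and 790.3 in iPSCs, so both MEF libraries lay below the other 4. The log2 changes against MEFs, 1.14 in pre-iPSCs and 1.20 in iPSCs (both SE 0.60), were not called, with limma adjusted p of 0.247 and 0.181. The tables list Gm5506, an enolase record, within the same stretch of chromosome 4 (Eno1 spans chr4:149611306-149622982, plus strand), and its FPKM was 203 and 486 in MEFs, then 268 and 283 in pre-iPSCs, then 283 and 255 in iPSCs. Gm5506 was highest in replicate 2 of MEFs, the library where Eno1 was lowest. The sum of both records was 864 and 712 in MEFs, then 1125 and 1128 in pre-iPSCs, then 1287 and 1046 in iPSCs. That sum still separated MEFs from the other cells, but it ranged from 712 to 1287 where Eno1 alone ranged from 226 to 1004. Reads shared by both records cannot be told apart in these tables, so the value of Eno1 in a single library is uncertain.

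Ldhb, the heart-type subunit that favours the use of lactate, was highest in iPSCs. It had 17.4 and 51.5 FPKM in MEFs, then 22.6 and 31.4 in pre-iPSCs, then 67.0 and 81.4 in iPSCs. Both iPSC libraries were above all others, while MEFs and pre-iPSCs overlapped. The log2 change was 1.44 (SE 0.41) against pre-iPSCs and 1.27 (SE 0.41) against MEFs, and neither was called (limma adjusted p = 0.0806 and 0.0596). Under quantile normalization of the libraries both were called, at 1.62 and 1.75 with limma adjusted p of 0.0328 and 0.013.

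Pdk1 had the widest range of the 10 in mean log2(FPKM + 1) over the cell types (2.94). Its FPKM was 1.29 and 3.35 in MEFs, then 14.3 and 27.5 in pre-iPSCs, then 20.6 and 26.02 in iPSCs. Every library of pre-iPSCs and iPSCs was above both of MEFs, and pre-iPSCs spanned iPSCs. In FPKM + 1, Pdk1 rose 6.61-fold in pre-iPSCs against MEFs (log2 change 2.72, SE 0.36, limma adjusted p = 0.00389). In iPSCs against MEFs it rose 7.67-fold (2.94, SE 0.36, limma adjusted p = 0.00218). The added 1 lowers both folds. Between iPSCs and pre-iPSCs the change was 0.21 (SE 0.36, limma adjusted p = 0.816). Both calls against MEFs held under every alternative. They also held without each library in turn, where the lone library of a cell type is assumed to vary like those of the other groups. The 3 genes whose log2(FPKM + 1) followed Pdk1 most closely over the 6 libraries were Rffl (r = 0.991), Kank3 (r = 0.988) and Zfp819 (r = 0.985), and 58 of 12391 genes reached an r of 0.95. Those libraries share their cell type, so r mostly describes the step between MEFs and the other cells.

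Read without overlap between groups, 4 of the 10 had higher values in pre-iPSCs against MEFs (Hk2, Pfkl, Eno1 and Pdk1), beside 24.6% of all genes tested, and 0 were lower, beside 29.3%. In iPSCs against MEFs, 5 were higher (Hk2, Pfkl, Eno1, Ldhb and Pdk1), beside 26.7%, and Hk1 was lower, beside 36.2%. In iPSCs against pre-iPSCs, Pfkl, Aldoa and Ldhb were higher, beside 20.9%, and Hk1 was lower, beside 31.1%. These counts move with the scaling. With each library rescaled to the same sum, 5 were higher in pre-iPSCs against MEFs (with Pfkp), beside 31.9% of all genes, and 7 were higher (with Pfkp and Aldoa) and 0 lower in iPSCs against MEFs, beside 35% and 22.4%. The counts in iPSCs against pre-iPSCs were the same, beside 21.1% and 26.9%. Replicate 2 of MEFs had the largest sum of FPKM, and its part in this was not tested. As a share of the summed FPKM, the 10 genes together took 0.439% and 0.398% in MEFs, then 0.518% and 0.746% in pre-iPSCs, then 0.711% and 0.812% in iPSCs. With quantile normalization, or with each library rescaled to the same sum, 5 of the 10 were called higher in iPSCs against MEFs: Aldoa, Eno1, Ldhb, Pdk1 and Pfkl. Over all 12401 genes, 12.8% and 10.9% were called higher under those settings, against 10.3% without them. In either direction 3303 and 2268 were called, against 3206.

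A ratio of isozymes within a library is free of that scaling. Hk2 made up 42.6% and 34.0% of the FPKM of Hk1 and Hk2 in MEFs, then 58.8% and 47.2% in pre-iPSCs, then 62.3% and 77.2% in iPSCs. The ratio of Hk2 to Hk1 was 0.628 ± 0.16 (SD, n = 2) in MEFs, then 1.16 ± 0.376 in pre-iPSCs, then 2.52 ± 1.23 in iPSCs, and no neighbouring groups overlapped. The geometric mean of the ratio was 3.83-fold higher in iPSCs than in MEFs. Pfkl made up 54.8% and 56.7% of the FPKM of Pfkp and Pfkl in MEFs, then 66.1% and 65.9% in pre-iPSCs, then 75.2% and 64.5% in iPSCs. MEFs lay below all other libraries and iPSCs spanned pre-iPSCs. Ldhb made up 3.18% and 3.62% of the FPKM of Ldha and Ldhb in MEFs, then 3.90% and 2.82% in pre-iPSCs, then 8.58% and 10.9% in iPSCs. The ratio of Ldha to Ldhb was 28.5 ± 2.7 (SD, n = 2) in MEFs and 29.6 ± 6.96 in pre-iPSCs, which overlapped, and 9.43 ± 1.73 in iPSCs, below all others. With 2 libraries against 2, the exact two-sided permutation test cannot go below p = 0.33, and 7 of the 9 combinations of pair and comparison stood at that value and had no overlap. The 9 combinations reuse the same libraries, and no share over other pairs of genes was computed. Those 7 were counted in either direction, so the higher and lower shares of single genes without overlap have to be added for comparison. The shares were 24.6% higher plus 29.3% lower from MEFs to pre-iPSCs. From pre-iPSCs to iPSCs they were 20.9% plus 31.1%, and from MEFs to iPSCs 26.7% plus 36.2%.

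**Figure D2:**
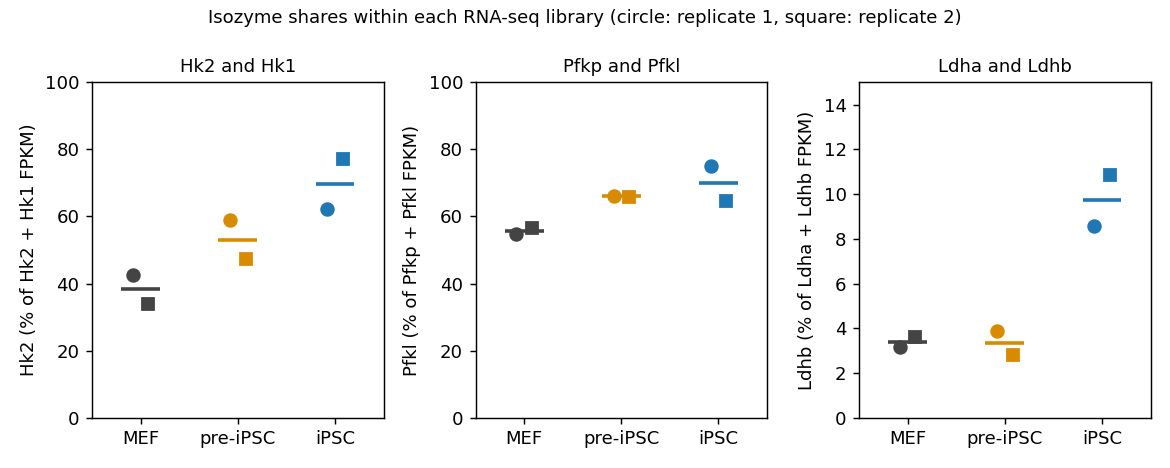
Share (%) of Hk2 in the summed FPKM of Hk2 and Hk1, of Pfkl in that of Pfkp and Pfkl, and of Ldhb in that of Ldha and Ldhb, in each library (points) with the mean of both replicates (bars). The Hk2 share is ordered MEFs, pre-iPSCs, iPSCs without overlap, the Pfkl share separates MEFs from the rest, and the Ldhb share separates iPSCs (8.58% and 10.9%) from the rest (2.82% to 3.90%).

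The neighbouring parts of the pathway were read from further lists. Of 22 names of other glycolysis genes, 19 matched and 11 were tested. Aldoc, a brain-type aldolase, rose in pre-iPSCs (log2 change 3.74, limma adjusted p = 0.00956) and iPSCs (3.03, adjusted p = 0.0148) against MEFs, from 0.496 and 1.20 FPKM to 8.65 and 59.5 and to 14.8 and 12.8. Ldhc, the lactate dehydrogenase of the testis, was listed at 0 in MEFs and pre-iPSCs and had 1.68 and 1.61 FPKM in iPSCs. Its average reached 0.5 FPKM through its iPSC libraries alone, so its test is not counted here. The other 9 genes of that list were called in no comparison, so that the call of Aldoc stands beside 7.39% and 10.3% of all genes called higher in pre-iPSCs and in iPSCs against MEFs.

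Of 11 names for glucose and lactate transport, 11 matched and 8 were tested, and 2 were called higher in pre-iPSCs against MEFs and 5 higher in iPSCs against MEFs. Of all genes tested, 7.39% were called higher in the first comparison and 10.3% in the second. Slc2a1, the widespread glucose transporter GLUT1, had 57.3 and 61.7 FPKM in MEFs, then 230.2 and 303 in pre-iPSCs, then 239 and 433 in iPSCs (log2 changes against MEFs of 2.13 and 2.42, limma adjusted p = 0.0137 and 0.00655). Slc2a3, the high-affinity transporter GLUT3, went from 0.894 and 0.999 FPKM in MEFs to 67.8 and 24.4 in pre-iPSCs, then 119 and 342 in iPSCs. Its log2 change against MEFs was 4.43 in pre-iPSCs and 6.70 in iPSCs (limma adjusted p = 0.00504 and 0.0011). Among monocarboxylate carriers, which move lactate, Slc16a1 (1.59) rose in iPSCs against MEFs. Slc16a7 had 1.39 and 1.49 FPKM in MEFs and was listed at 0 in both iPSC libraries, and its call as lower is not counted, since its average reached 0.5 FPKM through its MEF libraries. The carrier Slc16a3 (1.55, limma adjusted p = 0.0230) and the transporter Slc2a8 (1.29, adjusted p = 0.0436) were the remaining genes of the list called higher there, and they are named after their values were seen, since they lie outside the 3 largest changes. Slc2a6 was the gene of this list that fell in iPSCs against pre-iPSCs (-1.86), where 4.71% of all genes were called lower.

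Of 19 names for regulators of flux, 16 matched and 14 were tested, of which 0 rose in any comparison, 1 fell in pre-iPSCs and 1 fell in iPSCs against MEFs. Over all genes 3.91% to 10.3% were called higher in these comparisons, and 9% and 15.5% were called lower in pre-iPSCs and in iPSCs against MEFs. Pdk4, a starvation-induced kinase of the same family as Pdk1, had 1.52 and 3.31 FPKM in MEFs, then 0.139 and 0.0618 in pre-iPSCs, then 1.22 and 2.07 in iPSCs, and fell in pre-iPSCs against MEFs (log2 change -1.58, limma adjusted p = 0.0209). Brp44l, a subunit of the mitochondrial pyruvate carrier, fell in iPSCs against MEFs (-2.33, limma adjusted p = 0.00601), from 34.0 and 71.5 to 5.54 and 14.4 FPKM.

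Of 16 hypoxia genes outside glycolysis, all matched and were tested, and 3 were called higher and 3 lower in pre-iPSCs against MEFs, beside 7.39% and 9% of all genes. Egln3, a prolyl hydroxylase that marks HIF for degradation (3.69), Ndrg1 (2.63) and Epas1, which encodes HIF-2 alpha (2.51), rose. Adm, which encodes adrenomedullin (-2.85), and the collagen prolyl hydroxylases P4ha2 (-2.13) and P4ha1 (-1.41, limma adjusted p = 0.0466) fell. In iPSCs against pre-iPSCs, Adm rose (1.61) and Ndrg1 (-1.86) and Epas1 (-1.58) fell, where 3.91% of all genes were called higher and 4.71% lower. In iPSCs against MEFs, Egln3 (2.46) and Bnip3 (2.29) were higher, beside 10.3% of all genes called higher. There P4ha1 (-1.72), P4ha2 (-1.64) and Adm (-1.24, limma adjusted p = 0.0459) were lower, beside 15.5% of all genes called lower. The fall of P4ha1 and P4ha2 goes with that of the summed fibroblast markers, whose part in it was not tested.

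The median H3K4me3 of the 10 genes lay above that of all TSSs in every library, while Pgk1 lay below it in every library. Trimethylation of H3 at lysine 4 (H3K4me3) marks active promoters, at lysine 27 (H3K27me3) genes silenced by Polycomb, and at lysine 9 (H3K9me3) heterochromatin. Within 1000 bp of the TSS the median of the 10 was 59 and 51.5 H3K4me3 reads in MEFs, then 43 and 36.5 in pre-iPSCs, then 44 and 32.5 in iPSCs, beside 36 and 30, 28 and 25, and 29 and 25 over all TSSs. The highest single value was 82, at Ldha in replicate 1 of MEFs. Pgk1 was the lowest of the 10 in all 6 libraries, with 29 and 24 reads in MEFs, then 17 and 19 in pre-iPSCs, then 15 and 12 in iPSCs, where 20.5% to 42.9% of all TSSs had fewer reads. A count of 29 has an exact 95% Poisson interval of 19.4 to 41.6, which covers counting error only.

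For H3K4me3, 0 of the 10 genes, all tested, were called by edgeR with TMM scaling (adjusted p below 0.05) in any comparison, beside 3.85%, 0% and 13.7% of 17700 TSS windows in the same 3 comparisons. DESeq2 called none of the 10 either, beside 0.153%, 0% and 0.633% of all windows. With edgeR scaled to uniquely mapped reads, Pgk1 was called lower in iPSCs against MEFs (log2 change -1.01, adjusted p = 0.0485, against -0.67 and 0.221 with TMM scaling), beside 18.2% of all windows. Under TMM scaling, 3466, 1581 and 5285 of the 17700 windows had an unadjusted edgeR p below 0.05 in the 3 comparisons. Of the 30 edgeR tests of the 10 genes, 1 did. That was Hk1 in iPSCs against pre-iPSCs (log2 change -0.61, SE 0.25, edgeR adjusted p = 0.422), where reads went from 67 and 49 to 44 and 33. The rise of Pdk1 in RNA had no called change beside it in H3K4me3. Pdk1 had 44 and 39 H3K4me3 reads in MEFs, then 45 and 44 in pre-iPSCs, then 41 and 25 in iPSCs, with log2 changes of 0.42 (SE 0.25) and -0.03 (SE 0.27) against MEFs.

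**Figure D3:**
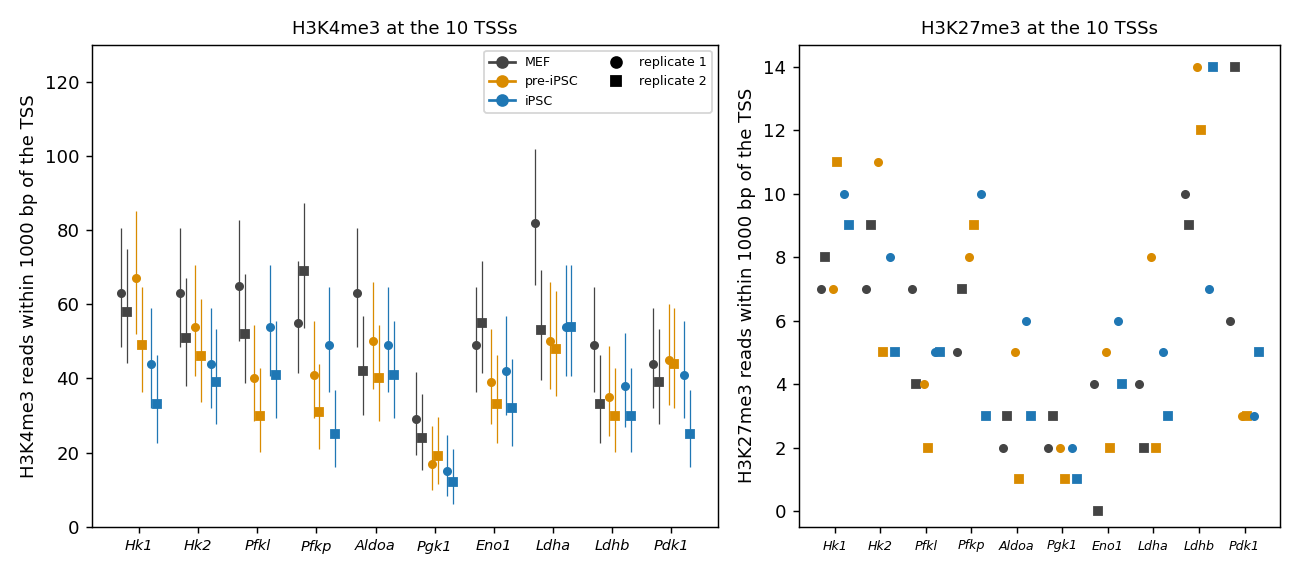
H3K4me3 reads (left, with exact 95% Poisson intervals) and H3K27me3 reads (right) in calls within 1000 bp of the TSS of each gene, for both replicates of each cell type. H3K4me3 lies between 12 and 82 reads with Pgk1 lowest in each library, and H3K27me3 between 0 and 14 reads.

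Several of the genes have more than 1 annotated start, and the H3K4me3 reads around them differed. Hk1 (chr10:61731603-61803169, minus strand, by the tables' RefSeq record) had 63 and 58 reads in MEFs at the start used here. At the annotated start 39487 bp further upstream it had 9 and 10 reads in MEFs, then 14 and 15 in pre-iPSCs, then 24 and 8 in iPSCs. At that upstream start the counts were below those at the start used here in every library. Ldha (chr7:54102452-54110997, plus strand) had another annotated start 1243 bp upstream, with 67 and 63 reads in MEFs, then 57 and 47 in pre-iPSCs, then 57 and 46 in iPSCs. The start used here had 82 and 53, 50 and 48, and 54 and 54, and the windows around both starts partly overlap. At Hk2 (chr6:82675021-82724448, minus strand) MEFs had more reads inside the gene than at its TSS. Around a start 1466 bp downstream Hk2 had 85 and 90 reads in MEFs against 55 and 38 in pre-iPSCs, then 34 and 35 in iPSCs, while at its main start it had 63 and 51, 54 and 46, and 44 and 39. The downstream window was chosen after its values were seen and was not tested.

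H3K27me3 counts lay between 0 and 14 reads, and the medians of the 10 were between 2.5 and 6 against 6 to 9 over all TSSs. Ldhb was above the median of all TSSs in all libraries but replicate 1 of iPSCs, and Hk1, Hk2, Pfkl, Pfkp and Pdk1 were above it in at least 1 library. Only Ldhb passed the filter on low counts, with 10 and 9 reads in MEFs, then 14 and 12 in pre-iPSCs, then 7 and 14 in iPSCs, and it was not called in any comparison (edgeR adjusted p between 0.568 and 0.891), beside 8.1%, 0.798% and 11.2% of the 10407 windows tested. Pdk1 had 6 and 14 H3K27me3 reads in MEFs, then 3 and 3 in pre-iPSCs, then 3 and 5 in iPSCs. In the wider window of 2000 bp the counts of Pdk1 were 21 and 32 in MEFs, then 16 and 8 in pre-iPSCs, then 6 and 14 in iPSCs, and both MEF libraries were above the other 4. In that window H3K27me3 at Pdk1 was lower in pre-iPSCs (log2 change -1.18, SE 0.37, edgeR adjusted p = 0.0294) and in iPSCs (-1.52, SE 0.38, adjusted p = 0.00349) than in MEFs, beside 9.5% and 15.6% of 18363 windows called. DESeq2 was not run on that window. Within 1000 bp DESeq2 called 0.298% and 0.173% of 10407 windows in these comparisons, where edgeR called 8.1% and 11.2%. With the study's threshold, by which a mark is present above 1 RPKM within 500 bp of the TSS, 0 of the 10 carried H3K27me3 in any library. Only reads inside nucleosome calls were counted here, 80.3% to 81.4% of the unique reads of these libraries, and were divided by all unique reads, so the values are lower than all reads would give and the classes are not the study's own. Few promoters of any gene did, since H3K27me3 alone was present at 0.908% to 2.56% of all promoters and together with H3K4me3 at 0.437% to 0.903%. H3K4me3 alone was present at 9 of the 10 in both MEF libraries, 6 in both pre-iPSC libraries, and 9 and 2 in iPSCs, while 30.4% to 55.8% of all promoters held H3K4me3 alone. Pgk1 was under the threshold in all 6 libraries, and the count of 2 in replicate 2 of iPSCs stands beside 32.1% of all promoters there. The counts 9 and 2 in iPSCs include values close to the threshold, such as 0.986 RPKM at Hk2 in replicate 2.

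H3K9me3 counts were too small to compare. With 1 library per cell type the 10 genes had between 1 and 11 reads, and no test is possible. Past 2-fold were Pgk1 and Pdk1 in pre-iPSCs against MEFs, Pfkl and Pgk1 in iPSCs against pre-iPSCs, and Hk2, Pgk1 and Pdk1 in iPSCs against MEFs, beside 26.4%, 22.4% and 32.8% of all TSS windows compared. Pgk1 had 7 reads in MEFs, then 3 in pre-iPSCs, then 1 in iPSCs, a ratio of iPSCs to MEFs of 0.144 with a 95% interval of 0.0032 to 1.12 from counting error alone. Pdk1 had 1, 4 and 6 reads, and the corresponding ratio of 6.05 had an interval of 0.734 to 278. Both intervals include 1, as do those of the other 8 genes in all comparisons.

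Pgk1 lies on the X chromosome (chrX:103382463-103399038, plus strand), whose share of reads differed between MEFs and the other cells. The X chromosome held 3.01% to 3.70% of the reads of H3, H3K4me3 and H3K27me3 in MEFs against 1.31% to 2.59% in pre-iPSCs and iPSCs. H3 at Pgk1 had 51 and 38 reads in MEFs, then 38 and 29 in pre-iPSCs, then 30 and 24 in iPSCs, with log2 changes of -1.10 (SE 0.65) and -1.32 (SE 0.65) against MEFs that were not called (edgeR adjusted p = 0.871 and 0.937). H3K4me3 at Pgk1 was -0.67 (SE 0.37) in iPSCs against MEFs, and it was called at -1.01 (edgeR adjusted p = 0.0485) when libraries were scaled to uniquely mapped reads, as were 18.2% of all windows. H3K27me3 at Pgk1 within 2000 bp fell from 10 and 17 reads in MEFs to 5 and 3 in iPSCs (-1.85, edgeR adjusted p = 0.0298). DESeq2 was not run on that window. Genes of the Y chromosome were expressed in all 6 RNA-seq libraries, with summed FPKM of 4 such genes between 17.9 and 35.6. The part of the chromosome's read share in the values of Pgk1 was not tested.

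Nucleosomes were read as total H3. Over all 10 together the stretch from -150 to 50 bp held 26 and 16 H3 reads in MEFs, then 60 and 6 in pre-iPSCs, then 73 and 24 in iPSCs. Per base this was 0.665 and 0.328 of the flanks in MEFs, then 0.338 and 0.162 in pre-iPSCs, then 0.616 and 0.595 in iPSCs. The same ratio over all 20156 genes was 0.678 and 0.732, 0.957 and 0.668, and 0.783 and 0.674. The pooled ratio of the 10 genes was below it in all 6 libraries. In replicate 1 of MEFs the margin was narrow, and Pgk1 alone held 18 of the 26 reads. In replicate 1 of iPSCs, Hk1 (30), Ldha (23) and Pfkp (15) held most of the 73 reads. Single genes could lie above the ratio of all genes. Ldha stood at 1.78 and 1.90 in iPSCs, and Pgk1 at 3.28 in replicate 2 of iPSCs. Pfkl had 0 reads in that stretch in all 6 libraries, and Hk1 had 2 to 35, which is 0.419 to 1.40 of its flanks per base. Within 1000 bp, 0 of the 10 were called for H3 in any comparison, with edgeR adjusted p of at least 0.871, as were 0% of the 19560 windows tested, where 373, 105 and 296 windows had an unadjusted p below 0.05 and DESeq2 called 0. The libraries that stand apart bear on this. Pdk1 had 38 and 54 H3 reads in MEFs, then 161 and 27 in pre-iPSCs, then 107 and 33 in iPSCs, and all genes but Pgk1 had more reads in replicate 1 of pre-iPSCs and of iPSCs than in any of the other 4 libraries. Without replicate 2 of pre-iPSCs, Pgk1 was called lower in pre-iPSCs than in MEFs (-2.09, edgeR adjusted p = 0.0132), and 23.4% of all windows were then called. Over the fits that leave out each library in turn, the log2 change of Pgk1 in that comparison lay between -2.09 and -0.42. Each such fit leaves 1 library in a group.

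**Figure D4:**
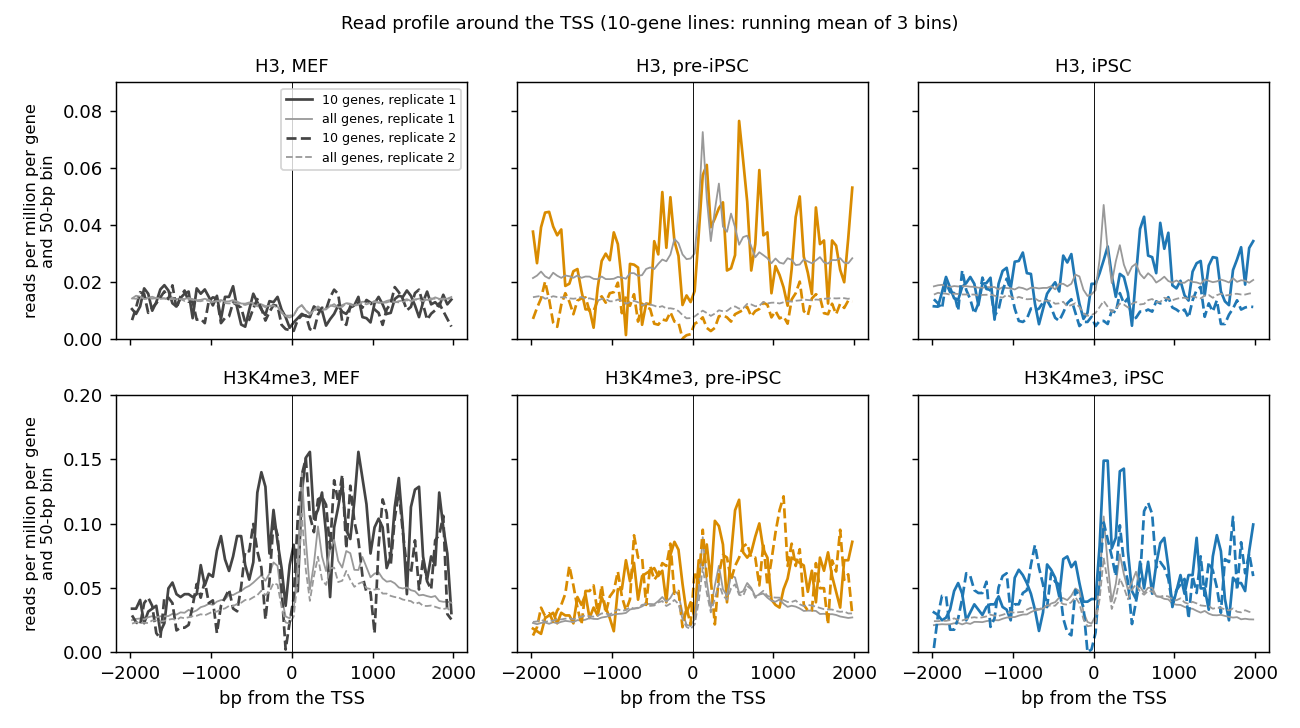
Reads per gene and 50-bp bin, scaled to the uniquely mapped reads (RPM), against the distance from the TSS for H3 (top) and H3K4me3 (bottom) in each cell type; coloured lines are the mean of the 10 genes, grey lines that of all genes, solid for replicate 1 and dashed for replicate 2. Replicate 1 of H3 in pre-iPSCs and iPSCs lies above replicate 2 over the whole stretch for all genes and over most of it for the 10 genes, and H3K4me3 dips at the TSS and is higher on its downstream side.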

How the data were processed

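Files of 27 mouse samples were used. The deposited counts are reads per nucleosome call, which the authors made with Bowtie 1.0.1 on mm9, keeping unique reads of at most 2 mismatches, shifting them by 73 bp and calling nucleosomes with GeneTrack. The deposited FPKM were computed by the authors with TopHat 2.0.4 and Cuffdiff 2.0.2. The column of fuzziness was not used. Reads of calls were summed within 1000 bp of each TSS of the tables.

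FPKM were tested with limma 3.58.1 on log2(FPKM + 1), leaving out genes whose average was under 0.5 FPKM, with the table (1 per replicate) as a term. The quasi-likelihood test of edgeR 4.0.16 was used for counts (TMM scaling, filterByExpr), with DESeq2 1.42.0 as an alternative, and RPKM and profiles use the uniquely mapped reads of the study. P-values were adjusted over all features (Benjamini-Hochberg). The limma test, and the edgeR test on H3K4me3 counts, were tested on simulated data. Isozyme ratios were compared by exact permutation in SciPy 1.17.1. H3K9me3 intervals are exact binomial.

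All 10 genes are described. Genes of the 4 further lists are named if called, with at most the 3 largest changes per list and direction, a rule applied within each comparison, and 3 genes most like Pdk1 by Pearson r. The members and lists were chosen with earlier results of these data known. Only the 10 genes, and not single genes of the lists, were put through the alternatives. Replicates are biological by the study's methods. The limma and edgeR p-values rest on a spread pooled over the 3 cell types, with 2 samples each, and moderated over all features. Since unique reads were kept, minimap2 2.31 was used to look for other loci matching at least 50% of a transcript at 90% identity: it found 2 for Pgk1, 2 for Eno1 and 1 for Ldhb. Starts and exons are from GENCODE vM1 on the same build. Rescaling of FPKM to the same sum per library, and the direction counts under both scalings, were added after the data were seen, while the other alternatives were set without the files.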

Additional observations from a re-analysis of the deposited data

How the results depend on the processing

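Both calls of Pdk1 against MEFs held under every alternative. The number of the 10 genes called higher in iPSCs against MEFs, 2 in the report, was 1 without the filter on low values, 1 without the replicate block (the term for the table), and 5 after quantile normalization or rescaling to the same sum. Over all genes 3206 of 12401 were called in either direction, against 2371 of 16963 without the filter, 3004 without the block, 3303 after quantile normalization and 2268 after rescaling. Under quantile normalization 1 gene was called higher in iPSCs against pre-iPSCs, where 1218 of all genes were called in either direction against 1069. H3K4me3 gave 1 call (Pgk1) in iPSCs against MEFs when scaled to unique reads, where 18.2% of all windows were called. H3K27me3 within 2000 bp gave 1 call (Pdk1) in pre-iPSCs and 2 (Pdk1 and Pgk1) in iPSCs against MEFs, beside 9.5% and 15.6% of all windows. With calls of at least 2 reads, H3K9me3 gave 5 genes past 2-fold in both pre-iPSCs against MEFs and iPSCs against pre-iPSCs. Within 500 bp it gave 5 in the latter. Beside these counts stand 44.2%, 42.6% and 38.5% of the windows that had reads in the second-named cell type. In these settings 4, 4 and 2 of the 10 had 0 reads in at least 1 of the libraries compared. The cause of these shifts was not tested.

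Quantile normalization and rescaling turned the sign of log2 changes that were not called: Aldoa (0.53 and 0.23), Ldha (0.51 and 0.31) and Ldhb (0.13 and 0.26) in pre-iPSCs against MEFs, and Pgk1 (0.55 and 0.40) and Ldha (0.38 and 0.18) in iPSCs against MEFs. H3K4me3 at Hk2 in iPSCs against MEFs turned to 0.32 within 500 bp.

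Leaving out each library in turn gave 1 to 2 genes called higher in pre-iPSCs against MEFs, 0 to 1 in iPSCs against pre-iPSCs and 1 to 4 in iPSCs against MEFs, and 0 to 1 called for H3 in pre-iPSCs against MEFs. Over all genes the calls in either direction ranged from 1072 to 2912, from 87 to 2281 and from 1117 to 3720. In iPSCs against MEFs the count of the 10 was 4 without replicate 1 and 3 without replicate 2 of MEFs, and 1 without any other library. Each such fit assumes that the lone library of a cell type varies like the other groups. Signs turned for log2 changes in pre-iPSCs against MEFs of Hk1 (-0.62 to 0.76), Aldoa (-0.63 to 0.21), Pgk1 (-0.33 to 0.57), Ldha (-0.60 to 0.34) and Ldhb (-0.74 to 0.40). They also turned in iPSCs against pre-iPSCs for Hk2 (-0.31 to 0.67), Pgk1 (-0.65 to 0.25), Eno1 (-0.40 to 0.53), Ldha (-0.80 to 0.46) and Pdk1 (-0.083 to 0.51), and in iPSCs against MEFs for Aldoa (-0.087 to 1.38), Pgk1 (-0.47 to 0.31) and Ldha (-0.93 to 0.33).

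Whether replicate numbers pair the samples is not given by the labels. The correlation of replicate differences was 0.35 between MEFs and pre-iPSCs, -0.20 between MEFs and iPSCs and 0.11 between pre-iPSCs and iPSCs for RNA-seq. Between pre-iPSCs and iPSCs it was 0.78 for H3, 0.12 for H3K4me3 and 0.03 for H3K27me3, and between MEFs and the other cells it lay between -0.04 and 0.01 for these marks. The chromatin tests had no replicate block, and adding one changed no call of the 10 genes. The expression test blocks by replicate number, since each number is a table of its own. The call of Pfkl rests on that block (limma adjusted p = 0.0349 with and 0.0502 without). With 2 libraries per group, changes below the spread of these samples cannot be seen, and 9 of the 10 genes had too few H3K27me3 reads to be tested within 1000 bp.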
